A study of Caenorhabditis elegans with 12 samples.

Results

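The genes that load yolk into the oocytes of Caenorhabditis elegans were followed across 12 whole-worm RNA-seq libraries. The set held the 6 vitellogenin genes (vit-1, vit-2, vit-3, vit-4, vit-5 and vit-6) and rme-2, the gene of the yolk receptor, picked by name from the 46739 features of the deposited expression table. All 7 were found, and all 7 passed the filter on low values that left 13161 genes to test. The worms were day 1 adults of strain PMD216 raised on HT115 E. coli carrying cat-1 RNAi (n = 4), cat-2 RNAi (n = 4) or the L4440 empty vector control, EV (n = 4). CAT-1 is the vesicular monoamine transporter and CAT-2 is tyrosine hydroxylase, the dopamine synthesis enzyme, and the study used the comparison to ask how disturbed dopamine handling changes gene expression. Every group shared the same alleles: a dat-1p::GFP reporter, the mutations rrf-3(b26) II and rde-1(ne219) V, and the rescue transgene dat-1p::sid1-SL2-rde-1. The dat-1 promoter is active in dopaminergic neurons, so RNAi was restored in those few cells, while vitellogenin mRNA is made elsewhere. The strain list of the study adds fem-1(hc17) IV, eri-1(mg366) IV, lin-15B(n744) X and wpSi6 II to this genotype, and its methods state that temperature-sensitive strains were kept at 25°C so that no progeny formed.

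Vitellogenins are large lipid-binding proteins related to the apolipoprotein B of vertebrates. In the adult hermaphrodite they are made in the intestine, secreted into the body cavity and taken into growing oocytes by RME-2, a member of the low-density lipoprotein receptor family that oocytes express. Vit-1 through vit-5 encode the larger yolk polypeptides, and the precursor encoded by vit-6 is cleaved after secretion into a pair of smaller polypeptides. In whole-worm RNA the 6 vit mRNAs thus stand for the intestine and rme-2 stands for the germ line. In such bulk samples fewer cells of a type and less RNA per cell cannot be told apart.

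In the Ensembl annotation of WBcel235, the assembly that UCSC calls ce11, 5 of the 6 vitellogenin genes lie on chromosome X. Vit-1 (WBGene00006925) is at chrX:7727889-7733168 on the plus strand and vit-2 (WBGene00006926) at chrX:5101042-5106169, also on the plus strand. Vit-3 (WBGene00006927, chrX:3567355-3572549) and vit-4 (WBGene00006928, chrX:3558769-3563965) sit next to each other on the minus strand with 3389 bp between them. Vit-5 (WBGene00006929) is at chrX:3403471-3408603 on the plus strand. Vit-6 (WBGene00006930, chrIV:8261157-8266459) and rme-2 (WBGene00004374, chrIV:5470026-5473174) are both on the plus strand of chromosome IV. The first annotated transcripts of the vitellogenins have 5 or 6 exons and that of rme-2 has 7. The vitellogenins on chromosome X are close copies of one another, most of all vit-3, vit-4 and vit-5. How reads that fit several of them were shared out is not given in the sources used here, so the split between these copies is uncertain. Noncoding genes overlap vit-3 (T27A10.8, 171 bp) and vit-4 (F59D8.3, 150 bp) on the opposite strand, and both were listed at 0 in every library.

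The libraries held 18765779 to 21493743 mapped reads, and the vitellogenins took 4.59% to 5.83% of them. Counting error was at most 0.692% of any member's value. The RNAi targets were higher, not lower, in the libraries labelled with their own RNAi. Cat-1 had 107 reads over the 4 libraries labelled cat-1 RNAi (12 to 61 per library), 22 reads in those labelled cat-2 RNAi and 15 reads in EV (2 to 5 per library). Cat-2 had 156 reads over the libraries labelled cat-2 RNAi (26 to 64 per library), 22 reads in those labelled cat-1 RNAi and 19 reads in EV (4 to 7 per library). Each target thus had more reads in its own RNAi libraries than in EV. The labels are kept here as given, and the cause was not tested. From here on, cat-1 RNAi and cat-2 RNAi name the libraries so labelled. The second replicate of cat-2 RNAi stood apart over all genes, with a limma quality weight of 0.331 where the other 11 libraries had 0.629 to 1.54. Summed markers of the intestine (14 genes) were at 2526 to 2870 RPKM with cat-1 RNAi, 2375 to 2614 RPKM with cat-2 RNAi and 2278 to 2708 RPKM in EV. Most of the intestine sum came from spp-5 (1404 to 1884 RPKM) and asp-1 (470 to 636 RPKM). Oocyte markers (20 genes) summed to 11524 to 12439.9 RPKM with cat-1 RNAi, 12155 to 12529.5 RPKM with cat-2 RNAi and 12213 to 12459.7 RPKM in EV. Sperm markers (16 genes) summed to no more than 17.2 RPKM with cat-1 RNAi, 19.3 RPKM with cat-2 RNAi and 16.01 RPKM in EV.

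Vit-6, vit-5 and vit-2 were among the most abundant mRNAs of the worm, ranked between 3 and 12 of all features by RPKM (the read count scaled by transcript length and by the library's mapped reads, which allows genes of different length to be compared) in every library. Averaged over the 12 libraries, the levels ran in the order vit-6, vit-5, vit-2, vit-4, vit-3, rme-2 and vit-1, as the plot of RPKM by library and gene shows. Vit-6 and vit-5 could not be placed in order, because vit-6 exceeded vit-5 in 7 of 12 libraries, with a ratio of 1.02 ± 0.0639 (SD, n = 12). Vit-5 exceeded vit-2 in 12 of 12 libraries although their ranges overlapped, at a ratio of 1.16 ± 0.0377. All other neighbours in the order had ranges that did not overlap. The mean ratio was 1.84 for vit-2 over vit-4, 1.49 for vit-4 over vit-3, 1.64 for vit-3 over rme-2 and 2.24 for rme-2 over vit-1.

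**Figure D1:**
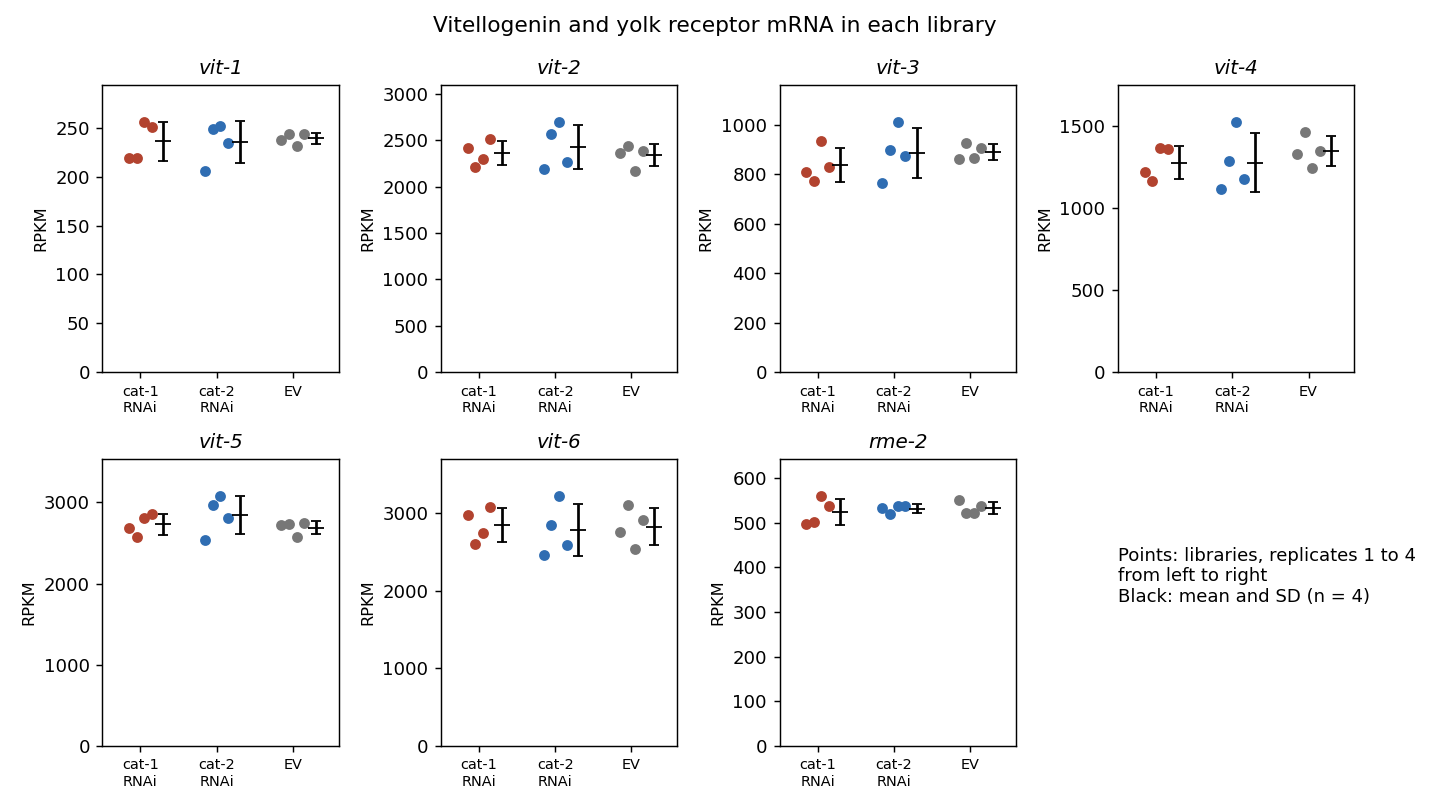
RPKM of each vitellogenin and of rme-2 in every library, by group (cat-1 RNAi, cat-2 RNAi, EV), with the group mean and SD (n = 4) in black; each vertical axis starts at 0. The groups overlap for all 7 genes, and the cat-2 RNAi libraries are the most spread for each vitellogenin, from 206 to 252 RPKM for vit-1 and from 1115 to 1522 RPKM for vit-4.

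Vit-6, the only vitellogenin gene off chromosome X, had 2968, 2599, 2741 and 3078 RPKM in the cat-1 RNAi libraries, 2463, 2846, 3217 and 2588 RPKM in the cat-2 RNAi libraries, and 2751, 3101, 2541 and 2909.5 RPKM in EV. The highest and lowest of the 12 values both came from cat-2 RNAi, in replicate 3 and replicate 1, and the EV range overlapped both RNAi ranges. Its mean was 2847 ± 216 RPKM with cat-1 RNAi, 2779 ± 333 RPKM with cat-2 RNAi and 2826 ± 237 RPKM in EV (SD, n = 4 each). Vit-5 had 2684, 2572, 2809.9 and 2863 RPKM in the cat-1 RNAi libraries, 2539, 2970.1, 3078 and 2808 RPKM in the cat-2 RNAi libraries, and 2717, 2733, 2570.2 and 2743 RPKM in EV. Of the 4 cat-2 RNAi libraries, 3 were above every EV library and the remaining 1, replicate 1, was below every EV library. Vit-5 averaged 2732 ± 131 RPKM with cat-1 RNAi, 2849 ± 234 RPKM with cat-2 RNAi and 2691 ± 81.0 RPKM in EV (SD, n = 4 each). Vit-2, which encodes a major larger yolk polypeptide, had 2420.5, 2215, 2304 and 2519 RPKM in the cat-1 RNAi libraries, 2186, 2569.9, 2695 and 2269 RPKM in the cat-2 RNAi libraries, and 2365, 2443, 2169 and 2382 RPKM in EV. Its groups overlapped, with replicates 2 and 3 of cat-2 RNAi above every EV library and no cat-2 RNAi library below every EV library. The vit-2 mean was 2364 ± 133 RPKM with cat-1 RNAi, 2430.0 ± 241 RPKM with cat-2 RNAi and 2339.9 ± 118 RPKM in EV (SD, n = 4 each).

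Vit-4 had 1217, 1165, 1369 and 1357 RPKM in the cat-1 RNAi libraries, 1115, 1288, 1522 and 1178 RPKM in the cat-2 RNAi libraries, and 1330.4, 1466, 1242 and 1351 RPKM in EV. It was the most spread of the 7 genes, with a coefficient of variation of 14.1% within cat-2 RNAi against 6.86% within EV, and its group means were 1277 ± 102 RPKM with cat-1 RNAi, 1276 ± 179 RPKM with cat-2 RNAi and 1347 ± 92.4 RPKM in EV (SD, n = 4 each). Its neighbour vit-3 had 809.5, 774, 933 and 828 RPKM in the cat-1 RNAi libraries, 763, 898, 1009 and 874 RPKM in the cat-2 RNAi libraries, and 862, 926, 866 and 905 RPKM in EV. Of the cat-1 RNAi libraries, 3 of 4 were below every EV library and the remaining 1, replicate 3, was above every EV library, so that the groups overlapped. The vit-3 mean was 836 ± 68.4 RPKM with cat-1 RNAi, 886 ± 101 RPKM with cat-2 RNAi and 889.6 ± 30.9 RPKM in EV (SD, n = 4 each). Vit-1, the least abundant, had 219, 219.8, 256 and 252 RPKM in the cat-1 RNAi libraries, 206, 249.5, 252 and 235.14 RPKM in the cat-2 RNAi libraries, and 238, 244, 232 and 244 RPKM in EV. The EV libraries lay close together, and the RNAi libraries fell on both sides of them: with cat-1 RNAi 2 were above every EV library and 2 below. Vit-1 averaged 237 ± 19.9 RPKM with cat-1 RNAi, 236 ± 21.3 RPKM with cat-2 RNAi and 239 ± 5.68 RPKM in EV (SD, n = 4 each). Because the shares between close copies are uncertain, the copies were also summed: vit-3, vit-4 and vit-5 together averaged 4845 ± 285 RPKM with cat-1 RNAi, 5011 ± 502 RPKM with cat-2 RNAi and 4927 ± 188 RPKM in EV, and vit-1 with vit-2 averaged 2601 ± 141 RPKM with cat-1 RNAi, 2666 ± 261 RPKM with cat-2 RNAi and 2579 ± 124 RPKM in EV (SD, n = 4 each). In each sum the group means differed by less than the SD within cat-2 RNAi.

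The yolk receptor gene rme-2 had 498, 501, 559.6 and 537 RPKM in the cat-1 RNAi libraries, 533, 518, 538 and 537 RPKM in the cat-2 RNAi libraries, and 550.4, 523, 523 and 537 RPKM in EV. It was the steadiest of the 7 genes, its highest library being 1.12 times its lowest, and its extremes (replicate 3 high, replicate 1 low) both came from cat-1 RNAi, not from the cat-2 RNAi libraries that held most vitellogenin extremes. The mean was 524 ± 29.7 RPKM with cat-1 RNAi, 532 ± 9.19 RPKM with cat-2 RNAi and 533 ± 13.3 RPKM in EV (SD, n = 4 each). The 6 vitellogenins together had 10360.1 ± 701 RPKM over the 12 libraries (SD), 19.6 times the rme-2 level per length.

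No change of a yolk gene against EV passed the test with cat-1 RNAi or with cat-2 RNAi. The 95% intervals of all 7 genes against EV lay between 0.825-fold and 1.16-fold. With cat-1 RNAi against EV, 0 of 7 passed a Benjamini-Hochberg adjusted p of 0.05 (limma), beside 0% of all genes tested. At an unadjusted p of 0.05, 0 of 7 passed, beside 5.94% of all genes. The 4 cat-1 RNAi libraries lay wholly above or below the 4 EV libraries for 0 of 7, beside 3.57% of all genes. The log2 fold changes, on the log2(RPKM + 0.5) scale, ran between −0.09 for vit-3 and 0.02 for vit-5, and their 95% intervals reached as low as 0.830-fold (vit-4) and as high as 1.146-fold (vit-6). The smallest adjusted p of a member was 0.8996 (limma). The median over the members was −0.02, where the median over all genes was 0.0039.

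With cat-2 RNAi against EV, 0 of 7 passed at the adjusted p of 0.05 (limma, Benjamini-Hochberg), beside 0.0304% of all genes, 0 of 7 at the unadjusted p of 0.05, beside 8.84%, and 0 of 7 had groups that did not overlap, beside 5.46%. Vit-5 had the highest log2 fold change, 0.08 (95% interval −0.05 to 0.21), and vit-4 the lowest, −0.09 (95% interval −0.28 to 0.10). Over the members the intervals reached 0.825-fold and 1.16-fold, and the smallest adjusted p was 0.717 (limma). The median over the members was −0.01 against 0.0114 over all genes. Both comparisons use the same 4 EV libraries. For vit-3 the log2 fold change was −0.09 with cat-1 RNAi and −0.01 with cat-2 RNAi, and for vit-4 it was −0.08 with cat-1 RNAi and −0.09 with cat-2 RNAi. For rme-2 it was −0.03 (95% interval −0.12 to 0.07) with cat-1 RNAi and −0.0038 (95% interval −0.10 to 0.09) with cat-2 RNAi. Without replicate 2 of cat-2 RNAi, the library that stood apart, the members' values with cat-2 RNAi ran between −0.09 and 0.06, with 0 of 7 past the adjusted threshold (smallest adjusted p = 0.825, limma). The rme-2 intervals were the narrowest of the 7, allowing a change to no less than 0.920-fold with cat-1 RNAi and no more than 1.06-fold with cat-2 RNAi.

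With cat-1 RNAi against cat-2 RNAi, the direct comparison of the RNAi treatments, 0 of 7 passed at the adjusted p of 0.05 (limma, Benjamini-Hochberg; 0% of all genes), 0 of 7 at the unadjusted p (6.44% of all genes) and 0 of 7 had groups that did not overlap (3.18% of all genes). The log2 fold changes ran between −0.08 for vit-3 and 0.04 for vit-6, with intervals that reached 0.845-fold and 1.17-fold and a smallest adjusted p of 0.912 (limma). The plot of fold changes shows that every interval includes 0. Limma's voom on the reads recovered from the RPKM values also called 0 of 7 in each comparison. Over all genes limma called 0 with cat-1 RNAi against EV (voom 0, and 782 at an unadjusted p of 0.05), 4 with cat-2 RNAi against EV (voom 3, and 1163 unadjusted) and 0 between the RNAi treatments (voom 1, and 848 unadjusted). For 11 of the 21 member fold changes the sign turned under another scaling or weighting with all libraries kept, the largest such value being 0.0928 on the log2 scale, so these signs are not given as directions.

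**Figure D2:**
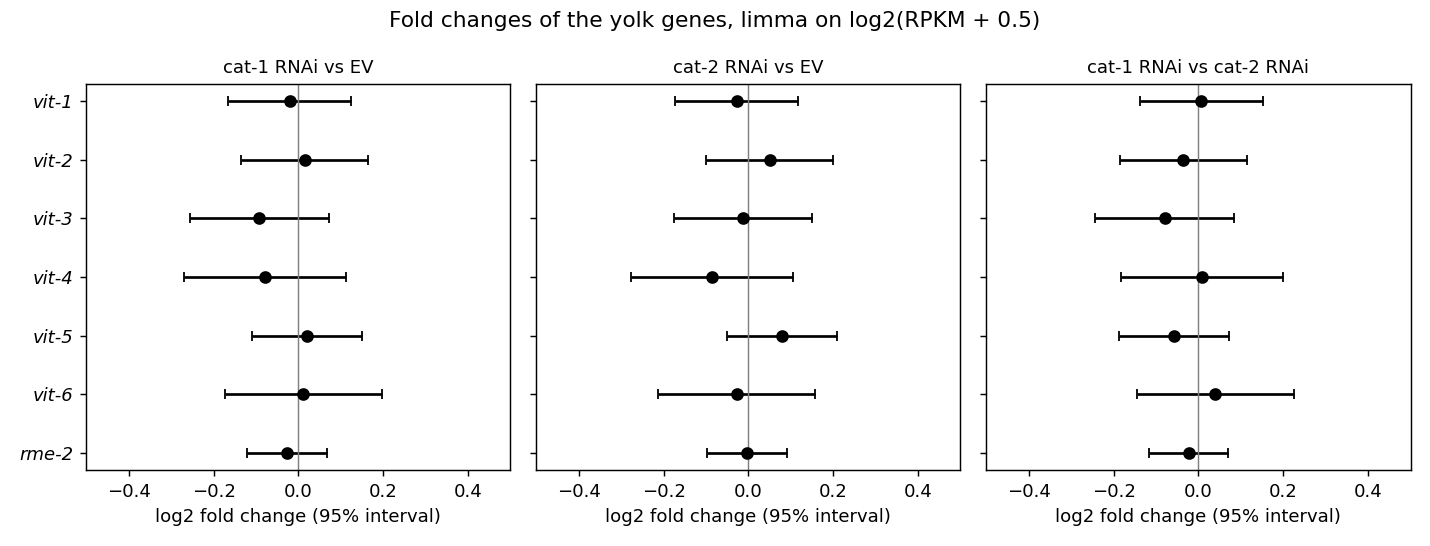
Log2 fold change of each gene on the log2(RPKM + 0.5) scale with its 95% interval from limma, in the 3 comparisons (cat-1 RNAi vs EV, cat-2 RNAi vs EV, cat-1 RNAi vs cat-2 RNAi; n = 4 libraries a group). All 21 intervals include 0, and those of rme-2 are the narrowest.

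The order of the vitellogenins in the summed pool held in every library apart from vit-5 and vit-6, as the plot of shares by library shows. Over the 12 libraries vit-6 made up 27.2 ± 0.923% of the summed vitellogenin RPKM, vit-5 26.6 ± 0.832%, vit-2 22.96 ± 0.494%, vit-4 12.5 ± 0.569%, vit-3 8.41 ± 0.423% and vit-1 2.29 ± 0.0990% (SD, n = 12). The share of vit-4 was 12.4 ± 0.568% with cat-1 RNAi, 12.2 ± 0.510% with cat-2 RNAi and 13.0 ± 0.277% in EV (SD, n = 4 each). The share of vit-5 was 26.6 ± 0.487% with cat-1 RNAi, 27.3 ± 0.857% with cat-2 RNAi and 26.1 ± 0.738% in EV. The ranges overlapped for both: the highest vit-4 share with cat-2 RNAi was 12.9% where the lowest in EV was 12.8%, and the lowest vit-5 share with cat-2 RNAi was 26.1% where the highest in EV was 26.7%. The coefficient of variation of a share over the 12 libraries was 2.15% (vit-2) to 5.03% (vit-3, between 7.60% and 9.004% of the sum), against 6.77% for the summed RPKM itself. Vit-2 was 10.04 ± 0.574 times vit-1 over the 12 libraries.

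**Figure D3:**
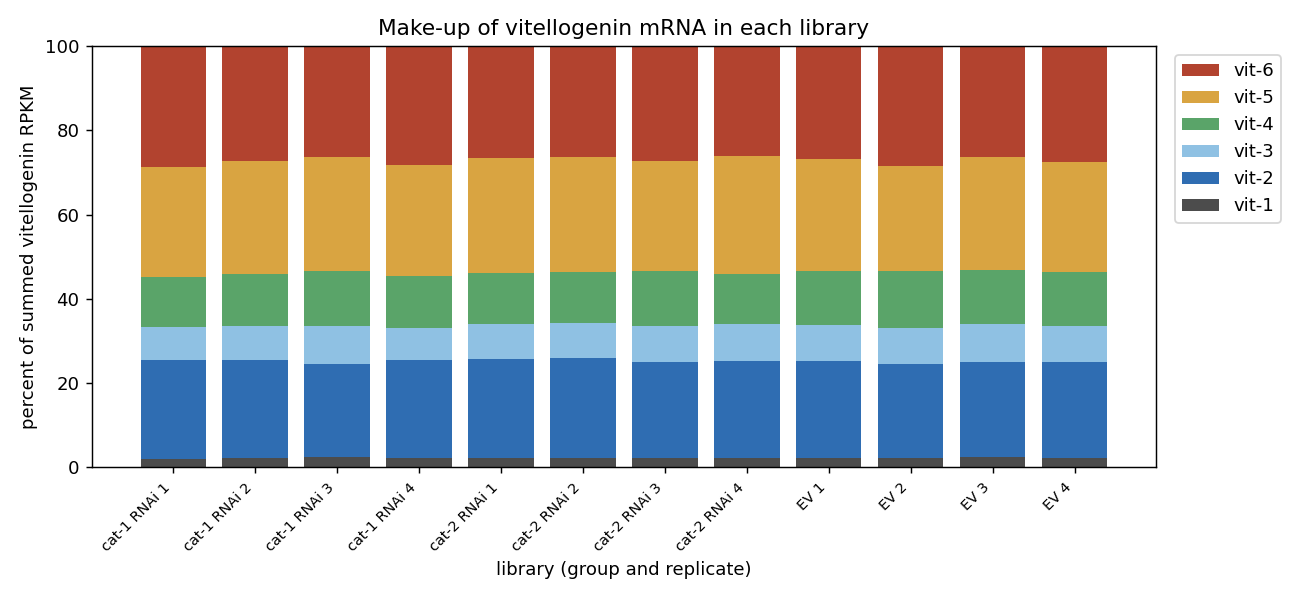
Percent of the summed vitellogenin RPKM taken by each vit gene in each of the 12 libraries, grouped as cat-1 RNAi, cat-2 RNAi and EV. Vit-6 takes 26.0% to 28.8% of the sum, vit-3, whose share varies most for its size, takes 7.60% to 9.004%, and vit-1 takes 2.12% to 2.46%.

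The size of the pool also varied between libraries. The summed vitellogenins were 10317, 9544, 10413 and 10898 RPKM with cat-1 RNAi, 9271, 10822, 11773 and 9953 RPKM with cat-2 RNAi and 10264, 10912, 9620.3 and 10534 RPKM in EV. The highest and the lowest sum both came from cat-2 RNAi, and the groups overlapped, with means of 10293 ± 560.0 RPKM with cat-1 RNAi, 10455 ± 1084 RPKM with cat-2 RNAi and 10332 ± 544 RPKM in EV (SD, n = 4 each). The map of deviations shows all 6 vitellogenins on the same side of their 12-library means in 4 libraries and on both sides in the other 8. In replicate 3 of cat-2 RNAi all 6 vitellogenins were above their means, by 6.29% to 17.1%. All 6 were below their means in replicate 1 of cat-2 RNAi (−14.3% to −7.90%), in replicate 2 of cat-1 RNAi (−11.12% to −6.73%) and in replicate 3 of EV (−9.80% to −0.499%). Among the mixed libraries, replicate 1 of cat-1 RNAi had vit-1 at −7.60% and vit-6 at 5.36%, replicate 4 of cat-1 RNAi ran between −4.84% and 9.26%, and replicate 4 of cat-2 RNAi between −9.38% and 1.85%. In the 4 libraries with all vitellogenins on the same side, rme-2 had the sign of the vitellogenins in 3, at 1.60% in replicate 3 of cat-2 RNAi, −5.47% in replicate 2 of cat-1 RNAi and −1.29% in replicate 3 of EV. It had the other sign in replicate 1 of cat-2 RNAi, at 0.649%. The within-group SD of log2 values was 0.0533 for rme-2 and 0.0845 (vit-5) to 0.143 (vit-4) for the vitellogenins. Among the 539 genes at a mean level of 200 RPKM or more, the members included, the median of that SD was 0.0807. Of these genes, 52.7% (vit-5) to 79.8% (vit-4) had less spread than the vitellogenin, against 20.8% that had less spread than rme-2.

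**Figure D4:**
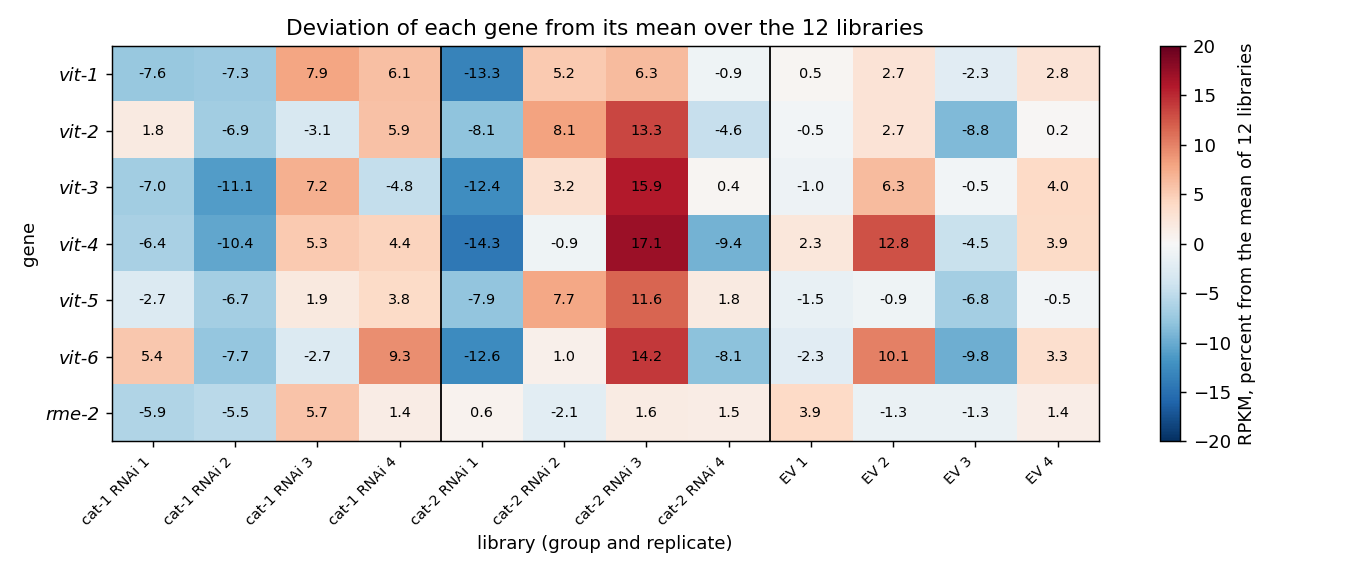
Percent by which each gene's RPKM lay above (red) or below (blue) its mean over the 12 libraries, with 1 column per library grouped as cat-1 RNAi, cat-2 RNAi and EV. All 6 vitellogenins share a sign in 4 of 12 columns, among them replicates 1 and 3 of cat-2 RNAi, where vit-4 lies at −14.3% and 17.1%.

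Over the 12 libraries the 15 pairs of vitellogenins had a Pearson r of 0.58 to 0.90 (median 0.75) on log2(RPKM + 0.5). Of all 145530 pairs among the 540 genes at 200 RPKM or more, 24.2% had an r over 0.5 and the median was 0.15, while 15 of 15 vitellogenin pairs were over 0.5. Values within a library share its total and depth, so these pairs are not independent of each other. Close copies may also share reads, so r between vit-3, vit-4 and vit-5, or between vit-1 and vit-2, may not describe each gene alone. The part of shared reads in these r values was not tested. In the family of 21 pairs of members, 12 of the 15 vitellogenin pairs passed an adjusted p of 0.05 by Pearson's r and 10 by Spearman's rho (permutation test, 100000 resamples, Benjamini-Hochberg). The closest pair was vit-2 and vit-6, on different chromosomes, with r = 0.90 (permutation p = 0.00014, adjusted p = 0.0021) and rho = 0.91 (permutation p = 0.0002, adjusted p = 0.00409). With the 2 libraries farthest from the median of vit-2 left out, r was 0.84. The neighbours vit-3 and vit-4 had r = 0.84 (permutation p = 0.00048, adjusted p = 0.00336), rho = 0.81 (permutation p = 0.00221, adjusted p = 0.0111) and r = 0.68 with the 2 farthest libraries left out. Other pairs had a much lower r without the 2 libraries farthest from the median of the first gene. For vit-3 with vit-6 r was 0.58, and 0.18 without them, and for vit-4 with vit-5 it was 0.68, and 0.36 without them. Leaving out extremes narrows the range of a gene, which can itself lower r. With each group's mean taken out, r was 0.66 for vit-3 with vit-6 and 0.89 for vit-4 with vit-5. Without replicate 3 of cat-2 RNAi, 7 pairs passed in place of 12, and the vitellogenin pairs had r of 0.39 to 0.87. With each group's mean taken out, r over the vitellogenin pairs was 0.62 to 0.96.

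The receptor gene followed the vitellogenins less closely in the RPKM as deposited. Of the 6 pairs of rme-2 with a vitellogenin, 0 passed (adjusted p between 0.105 and 0.966, permutation test), with r between 0.01 for vit-6 and 0.53 for vit-1. This depended on the scaling. When each library was scaled to the same median over all genes, an alternative chosen after seeing the data, 19 of the 21 pairs passed, r of rme-2 with a vitellogenin was 0.44 to 0.78, and r within the vitellogenins was 0.72 to 0.93. That scaling also raised the median r over all pairs of genes at 200 RPKM or more to 0.44, and 44.5% of them had r over 0.5. The medians of the libraries differed by −4.54% to 5.12% from their mean, a size like that of the rme-2 differences themselves. In the values as deposited, the library median over all genes tested had r = −0.78 with rme-2. With the vitellogenins it had r between −0.67 (vit-3) and −0.28 (vit-2). Whether rme-2 and the vitellogenins move together thus cannot be told from these libraries without a choice of scaling, and the difference between the 2 sets of pairs was not tested.

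**Figure D5:**
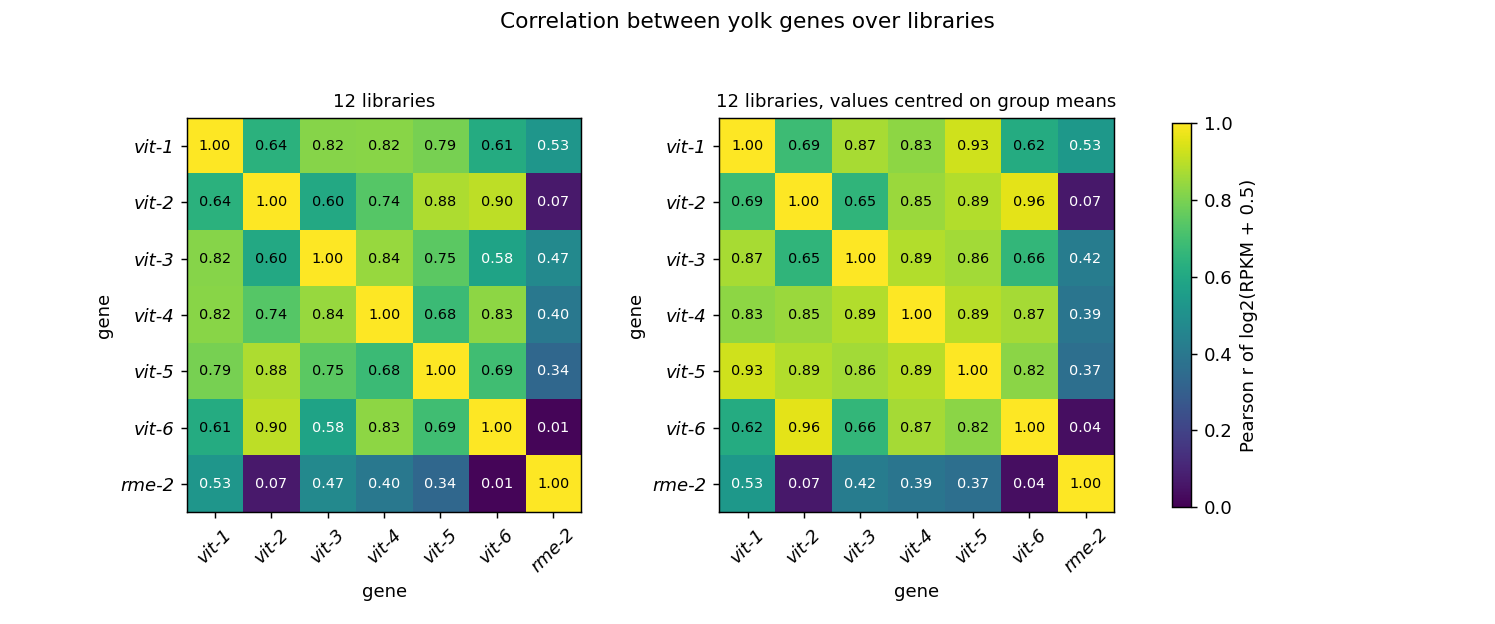
Pearson r of log2(RPKM + 0.5) between each pair of yolk genes over 12 libraries, left for the values as deposited and right with each group's mean taken out. Vitellogenin pairs lie between 0.58 and 0.90 on the left and between 0.62 and 0.96 on the right, and the rme-2 row lies between 0.01 and 0.53 on the left.

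The genes whose pattern over the 12 libraries was most like the summed vitellogenins were K11G9.2 (r = 0.86), hum-5, an unconventional myosin (0.83), Y82E9BL.18 (0.83), ZK1193.4 (0.81) and Y38F2AR.10 (0.81). All but hum-5, with a median of 13.6 RPKM, had a median below 3 RPKM, and 5 of 13154 genes had r over 0.8. Most like rme-2 were acs-13, a fatty acid CoA synthetase gene (r = 0.89, median 259 RPKM), and klp-15, a kinesin-like gene (0.88, 135 RPKM). Next came F28H7.4 (0.87, 1.13 RPKM), T04A8.7 (0.87, 84.2 RPKM) and osm-11, a Notch coligand gene (0.87, 153 RPKM). For rme-2, 22 genes had r over 0.8. These are descriptions of 12 libraries chosen as the highest of 13154 values. They use the RPKM as deposited, so they carry the same dependence on scaling. The summed intestine markers had r = −0.23 with the summed vitellogenins and −0.46 with rme-2, the summed oocyte markers had 0.25 with the vitellogenins and 0.65 with rme-2, and the sperm markers had −0.19 with the vitellogenins and 0.27 with rme-2, over 12 libraries. The intestine values mainly describe spp-5 and asp-1, which made up most of that sum. The sperm sums were low, at most 19.3 RPKM over 16 genes. These marker correlations also use the RPKM as deposited, and how far they depend on scaling was not tested.

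Genes known to control vitellogenin expression were listed as 24 yolk regulators, of which 23 were tested and 0 passed an adjusted p of 0.05 in any comparison (limma). At an unadjusted p of 0.05, 2 of 23 were higher and 0 lower with cat-1 RNAi than in EV (5.94% of all genes passed in either direction), 3 higher and 1 lower with cat-2 RNAi than in EV (8.84% of all genes), and 0 higher and 1 lower with cat-1 RNAi than with cat-2 RNAi (6.44% of all genes). Rict-1, the gene of the Rictor subunit of TORC2, averaged 46.8 ± 1.95 RPKM with cat-1 RNAi, 50.9 ± 1.08 RPKM with cat-2 RNAi and 44.5 ± 1.33 RPKM in EV, each over 4 libraries with its SD. On the log2 scale the fold change was 0.19 with cat-2 RNAi against EV (adjusted p = 0.289, limma) and 0.07 with cat-1 RNAi against EV. Daf-2, the insulin/IGF-1 receptor gene, averaged 37.3 ± 3.44 RPKM with cat-1 RNAi, 37.5 ± 1.88 RPKM with cat-2 RNAi and 33.3 ± 0.754 RPKM in EV, log2 fold changes of 0.16 with cat-1 RNAi and 0.17 with cat-2 RNAi. Lrp-2, a low-density lipoprotein receptor relative that promotes vitellogenin expression, had 0.45 with cat-1 RNAi and 0.42 with cat-2 RNAi against EV, and the zinc finger factor gene pqm-1 had −0.25 with cat-2 RNAi. Hlh-30, the TFEB homolog, had 0.15 with cat-1 RNAi. Between cat-1 RNAi and cat-2 RNAi, rict-1 had −0.12, the kinase gene akt-2 −0.17, the homeodomain factor gene unc-62 0.15 and the type II TGF-β receptor gene daf-4 0.10. None of these passed the adjusted threshold, and the list medians were −0.01 with cat-1 RNAi against EV, 0.03 with cat-2 RNAi against EV and −0.02 between the RNAi treatments.

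Of 12 genes for yolk assembly, lipid loading and processing, 12 were tested and 0 passed the adjusted threshold (limma). Unadjusted, 2 of 12 were higher and 0 lower with cat-1 RNAi than in EV (all genes 5.94%), 1 higher and 1 lower with cat-2 RNAi than in EV (all genes 8.84%), and 1 higher and 0 lower with cat-1 RNAi than with cat-2 RNAi (all genes 6.44%). Asp-1, an intestinal aspartic protease gene, averaged 590.1 ± 38.3 RPKM with cat-1 RNAi, 523 ± 35.9 RPKM with cat-2 RNAi and 514 ± 25.9 RPKM in EV, a log2 fold change of 0.20 with cat-1 RNAi against EV (adjusted p = 0.808, limma) and 0.17 against cat-2 RNAi. The fatty acid synthase gene fasn-1 had 0.26 with cat-1 RNAi and 0.27 with cat-2 RNAi. The cathepsin gene cpz-1 had −0.10 with cat-1 RNAi and −0.18 with cat-2 RNAi, and cpl-1, the cathepsin L gene that acts on yolk in embryos, had −0.13 with cat-2 RNAi. The desaturase gene fat-7 had −0.25 with cat-1 RNAi, and the lysosomal lipase gene lipl-5 had −0.13 with cat-2 RNAi. Between the RNAi treatments lipl-5 had 0.13, cpz-1 0.08 and cpl-1 0.05.

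Of 22 genes for receptor-mediated endocytosis, the machinery that takes RME-2 with its yolk cargo into the oocyte and returns the receptor to the surface, 22 were tested and 0 passed, adjusted or unadjusted, in each of the 3 comparisons (limma). The caveolin gene cav-1 had the largest values, 0.34 with cat-1 RNAi and 0.27 with cat-2 RNAi against EV. The clathrin light chain gene clic-1 had −0.08 with cat-1 RNAi, the recycling factor gene rme-1 −0.07 and the endosomal J-domain gene rme-8 0.09. With cat-2 RNAi the dynamin gene dyn-1 had −0.10, the sorting nexin gene snx-3 −0.13 and the Rab5 exchange factor gene rabx-5 0.06. Between the RNAi treatments clic-1 had −0.08, rme-6 0.12, dyn-1 0.09 and cup-5, the mucolipin gene, −0.08.

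Among the markers of the tissue that makes yolk, 0 of 14 intestine genes passed the adjusted threshold (limma). Unadjusted, 1 of 14 was higher and 0 lower with cat-1 RNAi than in EV, beside 5.94% of all genes, 1 higher and 3 lower with cat-2 RNAi than in EV, beside 8.84%, and 5 higher and 0 lower with cat-1 RNAi than with cat-2 RNAi, beside 6.44%. The median log2 fold change of the list was −0.01 with cat-1 RNAi against EV, −0.10 with cat-2 RNAi against EV and 0.11 between the RNAi treatments, where all genes had 0.0039 with cat-1 RNAi against EV, 0.0114 with cat-2 RNAi against EV and −0.0037 between the RNAi treatments. The brush border actin gene act-5 had −0.17 with cat-2 RNAi against EV and 0.22 between the RNAi treatments, and the intermediate filament gene ifb-2 had −0.25 with cat-2 RNAi. The vitellogenins had a median of −0.0044 with cat-1 RNAi against EV, −0.02 with cat-2 RNAi against EV and −0.01 between the RNAi treatments. Of the 20 oocyte markers, 0 passed adjusted, and unadjusted only chs-1, the eggshell chitin synthase gene, passed, at −0.08 with cat-1 RNAi against cat-2 RNAi. The sperm, early embryo, gonadal sheath and spermatheca, body wall muscle, neuron, and cuticle and hypodermis lists also had 0 genes past the adjusted threshold in any comparison (limma). With cat-1 RNAi against EV, 0 of 12 tested sperm genes, 1 of 7 early embryo genes (higher), 0 of 6 neuron genes and 1 of 4 cuticle and hypodermis genes (higher) passed unadjusted, beside 5.94% of all genes. With cat-2 RNAi against EV, 3 of 12 sperm genes (all lower), 3 of 7 early embryo genes (1 higher, 2 lower), 0 of 6 neuron genes and 1 of 4 cuticle and hypodermis genes (lower) passed, beside 8.84% of all genes. The sperm genes were near the floor: msp-3 averaged 0.23 RPKM with cat-2 RNAi and 0.84 RPKM in EV, and ssp-16 averaged 1.21 RPKM with cat-2 RNAi and 2.45 RPKM in EV. Between the RNAi treatments, 0 of 12 sperm genes, 3 of 7 early embryo genes (2 higher, 1 lower), 1 of 6 neuron genes (lower) and 1 of 4 cuticle and hypodermis genes (higher) passed, beside 6.44% of all genes. The sheath and spermatheca and the muscle lists had 0 of 6 in each comparison, and the early embryo gene hlh-27 was at 0 in every library. The summed cuticle and hypodermis markers did not overlap between cat-2 RNAi and the other groups: they were at 152 to 161 RPKM with cat-1 RNAi, 112 to 145 RPKM with cat-2 RNAi and 156 to 164 RPKM in EV, and the 3 cat-2 RNAi libraries other than replicate 2 were at 142.9 to 145 RPKM. Most of this sum came from the adult cuticle collagen gene col-19, at a mean of 139 RPKM with cat-1 RNAi, 118 RPKM with cat-2 RNAi and 145 RPKM in EV. Col-19 had −0.31 with cat-2 RNAi against EV (adjusted p = 0.461, limma) and 0.24 with cat-1 RNAi against cat-2 RNAi. The other tested genes of this list were far lower in level and did not all share its direction. Dpy-7 averaged 0.95 RPKM with cat-2 RNAi and 0.43 RPKM in EV, and sqt-3 averaged 13.3 RPKM with cat-2 RNAi and 9.87 RPKM in EV. Col-10 averaged 2.77 RPKM with cat-2 RNAi and 3.59 RPKM in EV. The list median over its 4 tested genes was 0.06 with cat-2 RNAi against EV and 0.28 between the RNAi treatments. Among all single genes, 5.46% had no overlap between cat-2 RNAi and EV, and 3.18% had none between the RNAi treatments. The part of tissue make-up in the vitellogenin values was not tested beyond these lists.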

How the data were processed

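Whole-worm poly(A) RNA was sequenced in 12 libraries. The deposited values are RPKM, which the authors computed with CLC software on the ce11 build, and neither strand use nor the handling of reads with several places is given in the sources used here. Whole reads and library totals were recovered from the RPKM steps for 20423 of 20423 features above 0 (tolerance 0.0001 reads). Genes with at least 0.5 RPKM in 4 or more libraries were tested with limma 3.58.1 in R 4.3.3 on log2(RPKM + 0.5), with trend and robust estimation, all 3 groups in 1 fit and Benjamini-Hochberg adjustment over 13161 genes. Labels call the libraries biological replicates. Replicate numbers were not used as a block. Correlations used Python 3.11.15 and scipy 1.17.1. The scripts were tested on simulated data. The members and lists were chosen with earlier results of these data known. Always named were the 7 members and both RNAi targets, up to 4 genes per list and comparison by smallest p (fewer for markers), and the 5 genes most correlated with the summed vitellogenins and with rme-2. Alternatives changed the pseudocount, filter, scaling, weights, variance model and samples. No sequences were used here.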

Additional observations from a re-analysis of the deposited data

Results flagged for a closer look

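Among 48 groups of 4 values examined (the 7 genes, their sum and 8 marker lists in 3 groups), 3 had an extreme library whose gap to its nearest neighbour was more of the group's range than Dixon's 95% critical value, and chance alone gives about 1 in 20 groups. Vit-5 in EV had a gap of 0.85 of its range, with replicate 3 at 2570.2 RPKM and the highest EV library at 2743 RPKM. Without EV replicate 3 the vit-5 log2 fold change was −0.000575 with cat-1 RNAi against EV, and it was 0.02 with all libraries. Body wall muscle markers in EV had a gap of 0.894, with replicate 2 at a summed 656 RPKM and the lowest EV library at 444 RPKM. Cuticle and hypodermis markers in cat-2 RNAi had a gap of 0.945, with replicate 2 at a summed 112 RPKM and the other 3 libraries of that group at 142.9 to 145 RPKM. All 4 cat-2 RNAi libraries lay below every cat-1 RNAi library (152 to 161 RPKM) and every EV library (156 to 164 RPKM). Most of this sum came from col-19. In the same list the mean of col-10 was also lower with cat-2 RNAi than in EV, while those of dpy-7 and sqt-3 were higher. Among all single genes, 5.46% had no overlap between cat-2 RNAi and EV, and 3.18% had none between the RNAi treatments. Replicate 2 had the lowest quality weight, and its vitellogenin values lay inside the range of the other cat-2 RNAi libraries.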

How the results depend on the processing

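Of 504 member fold changes under 24 alternatives, 462 kept their direction, 42 turned, and 0 became a call. The smallest adjusted p of a member was 0.352 (limma), and the largest log2 fold change was 0.175 in size. Those that turned had been at most 0.0863 in size. Median scaling gave cat-1 RNAi against EV −0.0256 (vit-2), −0.0190 (vit-5) and −0.0289 (vit-6), and cat-1 RNAi against cat-2 RNAi −0.00728 (vit-1) and −0.00600 (vit-4). Quantile normalization gave cat-2 RNAi against EV 0.000906 (vit-1), 0.0928 (vit-3), 0.0268 (vit-4) and 0.0354 (rme-2), and cat-1 RNAi against cat-2 RNAi −0.0165 (vit-1) and −0.0445 (vit-4). Library quality weights gave vit-2 −0.00680 in cat-2 RNAi against EV and 0.0159 in cat-1 RNAi against cat-2 RNAi. With 1 library left out, the log2 fold changes of members that turned in cat-1 RNAi against EV ran −0.0591 to 0.0152 for vit-1, −0.0211 to 0.0457 for vit-2, −0.00169 to 0.04996 for vit-5 and −0.0384 to 0.0574 for vit-6. With 1 library left out, the log2 fold changes of members that turned in cat-2 RNAi against EV ran −0.0613 to 0.0366 for vit-1, −0.000927 to 0.0996 for vit-2, −0.0772 to 0.0572 for vit-3, −0.101 to 0.0275 for vit-6 and −0.0132 to 0.0116 for rme-2. With 1 library left out, the log2 fold changes of members that turned in cat-1 RNAi against cat-2 RNAi ran −0.0568 to 0.0425 for vit-1, −0.0849 to 0.0157 for vit-2, −0.0533 to 0.0966 for vit-4, −0.0161 to 0.112 for vit-6 and −0.0552 to 0.000669 for rme-2. The cause was not tested.

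Over all genes, the 4 calls with cat-2 RNAi against EV became 1 with a pseudocount of 0.1 or with only the 2 groups compared, 2 with quantile normalization or median scaling, 9 with library quality weights, and 0 with no filter or with no trend and no robust estimation, and 0 to 5 with 1 library left out. With 1 library left out, cat-1 RNAi against EV had 0 to 1 calls and cat-1 RNAi against cat-2 RNAi 0 to 2, and the last had 1 with quality weights and 1 with voom. Libraries with the same replicate number in different groups had correlations of −0.0578 to 0.185 about their group means. In 8 of 24 cases a library correlated best with its own number in another group. Whether libraries of the same number were raised together cannot be told from this check. A replicate block left 0 calls with cat-2 RNAi against EV and changed no member's call. Of the 21 correlations, 12 passed, 10 by Spearman's rho, 19 with median scaling and 7 to 15 with 1 library left out, alternatives chosen after seeing the data. Counting error was at most 0.692% of a member's value, and a change smaller than the intervals given could not be seen with 4 libraries a group.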
